A study of Mus musculus with 11 samples.

Results

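Skeletal muscle genes were followed in RNA from full-thickness colon of 11 mice aged 2 weeks. The group holds 47 genes of contractile fibres, chosen by symbol, out of 35683 genes in the table, and all 47 were found. Of the 11 mice, 6 carried the Tnfr1-/- genotype (loss of Tnfrsf1a, a receptor for tumour necrosis factor) and 5 were wild type. Each library came from 1 mouse, and the labels give no sex, litter, strain background, colon segment or dissection day. The members were picked from earlier values of these libraries, so their levels and their co-variation are given as description without a test.

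Skeletal muscle fibres contract when calcium, released from the sarcoplasmic reticulum, binds troponin on the actin thin filament and lets myosin heads of the thick filament pull. Myosin and troponin exist in forms that mark fast fibres, slow fibres and fibres before or shortly after birth, and the myogenic factors are the transcription factors that turn these genes on. The muscle layers of the colon wall are smooth muscle, which uses other myosin, actin and calponin genes, and striated fibres lie next to the gut at the anal sphincter and the pelvic wall.

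Values are abundances in scaled TPM, a share of transcripts per length that is divided by a size factor of the library and summed per gene, so they are per length and can be set side by side between genes. Estimated depth ran from 27.6 to 42.0 M reads. The targeted gene Tnfrsf1a was between 19.0 and 28.0 in the Tnfr1-/- libraries and between 61.7 and 73.1 in the wild type, lower in every Tnfr1-/- library but not at 0. Colon markers were present throughout: 14 of 14 colon epithelial markers were tested, and their summed level ran from 9071 to 15236. Y-linked Eif2s3y, which encodes a translation factor subunit, was between 54.6 and 71.5 in replicates 2 and 5 of each genotype and at most 0.288 in the other 7 libraries.

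The genes did not sit at a similar level in the 11 libraries: 3 libraries stood apart. Summed over the 47 genes, abundance in Tnfr1-/- replicates 1 to 6 was 1606, 15473, 1092, 2144, 5152 and 1155. In wild-type replicates 1 to 5 the sums were 1454, 1422, 853, 1096 and 4003. Tnfr1-/- replicate 2 was highest, Tnfr1-/- replicate 5 next and wild-type replicate 5 after it, and the genotypes overlapped. As a share of all abundance the genes took 1.65% in Tnfr1-/- replicate 2, 0.516% in Tnfr1-/- replicate 5, 0.379% in wild-type replicate 5 and between 0.083% and 0.215% in the other 8. In bulk RNA, fewer cells of a type and less RNA per cell cannot be told apart.

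Most members followed this order. Tnfr1-/- replicate 2 was the highest library for 42 of 47 members, while 11.3% of all 15079 genes tested were highest there. Tnfr1-/- replicate 5 was second for 33 members and wild-type replicate 5 for 7. Against the median of the other 10 libraries, the level in Tnfr1-/- replicate 2 was at least 3-fold for 41 of 47 members (35 of the 41 that were tested), with a median of 10.6-fold. Among all genes tested the median was 0.994-fold and 1.25% reached 3-fold. Wild-type replicate 3 was the lowest library for 31 members. Since members were chosen for moving together in these libraries, these counts only describe the group.

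**Figure D1:**
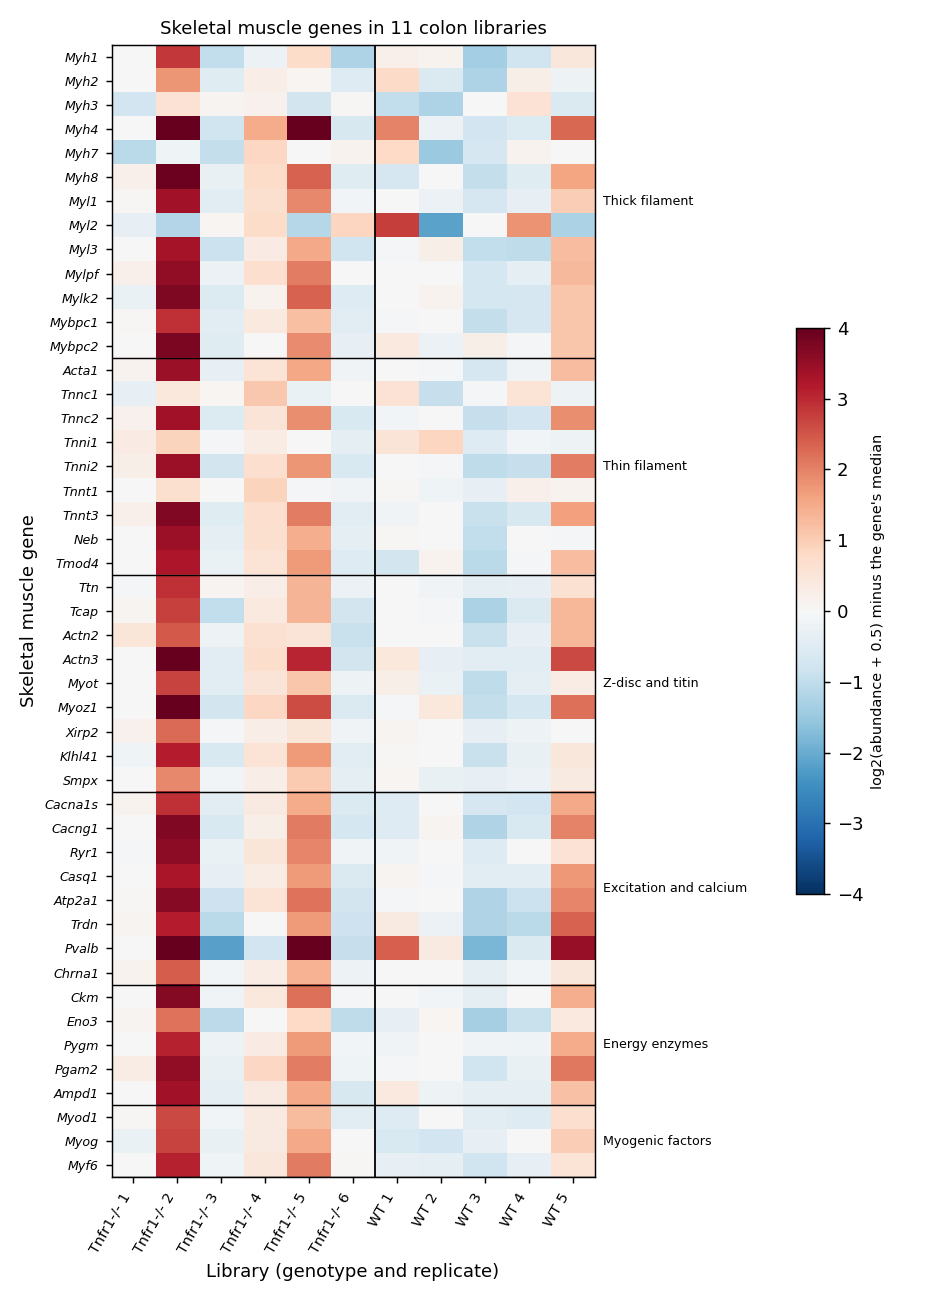
Heat map of the 47 skeletal muscle genes (rows, by role) in the 11 libraries (columns), coloured by log2(abundance + 0.5) minus the gene's median over the libraries. Tnfr1-/- replicates 2 and 5 and wild-type replicate 5 are red for most genes; the rows of Myl2, Myh7, Tnnc1, Tnni1, Tnnt1 and Myh3 differ from that pattern.

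Promoters are shown for genes on both sides of that divide: Acta1, Mylpf and Myog followed the 3 libraries, and the slow troponin genes Tnnt1 and Tnni1 did not. Each is the 250 bases before the RefSeq start on GRCm38.p6, written 5′ to 3′ on the gene's strand. Capitals mark an E-box (CANNTG, a word bound by myogenic factors) or, in Acta1, a CArG box (the serum response factor motif).
Acta1, chr8:123894776-123895025, minus strand: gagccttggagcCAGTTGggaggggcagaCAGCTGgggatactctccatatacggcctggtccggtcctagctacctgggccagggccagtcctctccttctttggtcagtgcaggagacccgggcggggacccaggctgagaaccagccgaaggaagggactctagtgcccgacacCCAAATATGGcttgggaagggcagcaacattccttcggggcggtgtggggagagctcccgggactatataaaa
Mylpf, chr7:127211358-127211607, plus strand: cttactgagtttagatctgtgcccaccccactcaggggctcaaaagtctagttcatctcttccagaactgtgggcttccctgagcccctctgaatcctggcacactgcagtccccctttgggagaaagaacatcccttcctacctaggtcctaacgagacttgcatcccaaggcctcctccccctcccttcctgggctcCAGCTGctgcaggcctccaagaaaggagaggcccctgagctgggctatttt
Myog, chr1:134289754-134290003, plus strand: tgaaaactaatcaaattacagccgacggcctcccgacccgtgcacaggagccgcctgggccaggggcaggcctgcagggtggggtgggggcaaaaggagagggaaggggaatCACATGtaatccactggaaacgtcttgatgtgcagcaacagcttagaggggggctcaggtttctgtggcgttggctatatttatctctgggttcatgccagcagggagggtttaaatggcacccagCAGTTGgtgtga
Tnnt1, chr7:4515976-4516225, minus strand: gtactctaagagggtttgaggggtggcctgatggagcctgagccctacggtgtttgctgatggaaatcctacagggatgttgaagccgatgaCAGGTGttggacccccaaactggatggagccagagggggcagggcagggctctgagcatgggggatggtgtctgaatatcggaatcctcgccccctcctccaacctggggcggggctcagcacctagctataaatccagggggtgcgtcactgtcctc
Tnni1, chr1:135799171-135799420, plus strand, the first of 2 listed starts: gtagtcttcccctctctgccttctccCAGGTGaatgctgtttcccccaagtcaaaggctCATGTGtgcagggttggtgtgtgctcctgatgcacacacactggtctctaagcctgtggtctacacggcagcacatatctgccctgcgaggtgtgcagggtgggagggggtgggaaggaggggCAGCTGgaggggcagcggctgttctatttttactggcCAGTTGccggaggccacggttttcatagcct

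RefSeq gave 38 such windows for 34 of the 47 members. The E-box CAGCTG, searched on both strands, was in 42.1% of them and in 13.0% of all 32851 windows. Any CANNTG, which includes CAGCTG, was in 86.8% against 66.2%. The motif of MEF2, a partner of the myogenic factors, was in 21.1% against 2.92%, and the CArG box in 7.89% against 1.47%. Both slow troponin windows printed hold E-boxes too. These are matches of letters and were not tested for binding.

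Thick filament genes made up the myosin motor and its light chains. Mylpf, the fast regulatory light chain and the most abundant of the 13, ran from 150.1 to 2072 in the Tnfr1-/- libraries with a median of 243, and was 177, 173, 108, 134 and 432 in wild-type replicates 1 to 5. Myl1, a fast essential light chain, ran from 88.7 to 1227 with a median of 153, against 118, 99.4, 74.3, 94.0 and 232. For both genes Tnfr1-/- replicate 2 was highest, wild-type replicate 5 was the highest wild type, and the ranges of the genotypes overlapped. Of Myl1's 31-base words, 38.7% are shared with the pseudogene Mylf-ps, so its reads could be split.

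The heavy chains came from a cluster on chromosome 11 of GRCm38, with Myh3 at chr11:67078300-67102291, Myh2 at chr11:67171027-67197517, Myh1 at chr11:67200052-67224575, Myh4 at chr11:67238029-67260446 and Myh8 at chr11:67277124-67308634, all on the plus strand. Myh7, the slow and cardiac form, lies at chr14:54970684-54994626 on the minus strand. Myh8, the perinatal form, was the most abundant heavy chain in every library. It ran from 30.5 to 659 in the Tnfr1-/- libraries with a median of 60.8, and was 26.6, 42.9, 22.1, 30.8 and 130.2 in the wild type. Tnfr1-/- replicates 2 and 5 (659 and 224) and wild-type replicate 5 were the 3 highest libraries.

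Myh8 took between 44.5% and 80.1% of the abundance of the 6 heavy chains, with a median of 70.5%. Its lowest share was in wild-type replicate 1, where Myh1 took 30.6%. The adult fast forms had different spreads over the libraries. Myh1, the fast form of type 2X fibres, ran from 6.42 to 115 with a median of 14.5 in the Tnfr1-/- libraries, against 18.3, 17.6, 5.80, 8.83 and 21.6 in the wild type. Myh2, of type 2A fibres, ran from 2.10 to 12.1 with a median of 3.28, against 5.78, 1.96, 1.06, 3.84 and 2.72. For both, Tnfr1-/- replicate 2 stood above the other 10 libraries, whose genotypes overlapped.

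Myh4, of the fastest 2B fibres, had the widest spread of the heavy chains. It was 0.643, 101, 0.160, 2.72, 22.6 and 0.240 in Tnfr1-/- replicates 1 to 6, and 4.02, 0.464, 0.176, 0.279 and 5.10 in wild-type replicates 1 to 5. In Tnfr1-/- replicate 2 it was 183-fold above the median of the other libraries, more than any other member. The ratio of Myh4 to Myh1 was 0.882 in Tnfr1-/- replicate 2 and 0.854 in Tnfr1-/- replicate 5, between 0.204 and 0.236 in Tnfr1-/- replicate 4 and wild-type replicates 1 and 5, and between 0.021 and 0.041 in the other 6. The heavy chain make-up therefore differed between libraries as well as the total. Sequence limits this reading, because 40.2% of Myh1's 31-base words, 39.0% of Myh2's, 30.4% of Myh4's and 32.5% of Myh8's occur in another transcript, mostly of the same cluster.

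**Figure D2:**
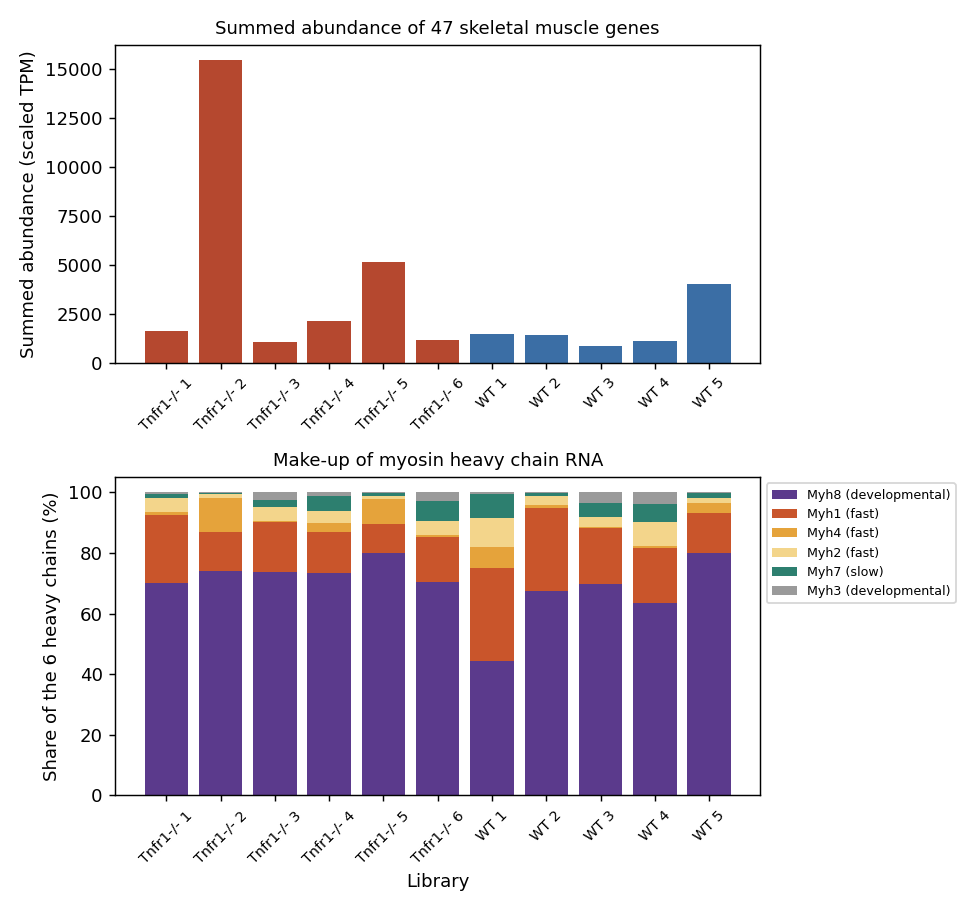
Top, summed abundance (scaled TPM) of the 47 genes in each library, red for Tnfr1-/- and blue for wild type, from 853 to 15473. Bottom, share in percent of each of 6 heavy chains in each library; Myh8 is the largest in every library and Myh4 reaches 11.4% in Tnfr1-/- replicate 2.

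Embryonic Myh3 and slow Myh7 did not follow the 3 libraries. Myh3 ran from 0.464 to 1.91 in the Tnfr1-/- libraries with a median of 1.22, and was 0.314, 0.188, 1.12, 1.94 and 0.593 in the wild type, where replicate 4 was the highest of all 11. Myh7 ran from 0.943 to 4.84 with a median of 2.36, against 4.72, 0.578, 1.40, 2.80 and 2.52, and was highest in Tnfr1-/- replicate 4. In Tnfr1-/- replicate 2 Myh3 was 2.22-fold over the median of the other libraries and the second highest of the 11, and Myh7, at 2.19, was 0.866-fold. For Myh7 the most abundant transcript was a fragment of 595 bases that shares 58.8% of its words with the cardiac gene Myh6, itself at most 1.05 in any library.

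The light chains and binding proteins split likewise. Slow Myl3 (10.6-fold in Tnfr1-/- replicate 2 over the median of the rest) and slow Mybpc1 (7.88-fold), which encodes a myosin binding protein, followed the 3 libraries. Slow and cardiac Myl2, a regulatory light chain, did the opposite in Tnfr1-/- replicate 2, at 0.267-fold, and was highest in wild-type replicate 1 at 14.5 and wild-type replicate 4 at 7.05. That low level of Myl2 rests on an estimated 2.0 reads in Tnfr1-/- replicate 2, and the gene was listed at 0 in wild-type replicate 2. Fast Mybpc2 was 21.3-fold and Mylk2, the skeletal myosin light chain kinase, 26.5-fold.

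Thin filament genes held the highest levels. Acta1, skeletal alpha-actin, ran from 164 to 2266 in the Tnfr1-/- libraries with a median of 267, and was 206, 195, 128, 189 and 485 in the wild type. Tnnc2, the fast calcium-binding troponin C, ran from 114 to 1801 with a median of 222, against 162, 174, 92.1, 102 and 629. Wild-type replicate 5 (629) stood level with Tnfr1-/- replicate 5 (626) for Tnnc2, and the genotypes overlapped for both genes.

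The fast inhibitory subunit Tnni2 ran from 65.0 to 1178 with a median of 152 in the Tnfr1-/- libraries, against 109, 104, 53.4, 57.7 and 449 in the wild type. Its slow counterpart Tnni1 ran from 13.7 to 34.3 with a median of 20.4, against 26.2, 33.5, 12.6, 16.9 and 15.9. While Tnni2 was 11.0-fold in Tnfr1-/- replicate 2, Tnni1 was 1.92-fold, and wild-type replicate 2 was next to it at 33.5. The slow share of troponin I thus lay at 2.83%, 4.69% and 3.43% in Tnfr1-/- replicates 2 and 5 and wild-type replicate 5, and between 11.4% and 24.3% in the other 8 libraries.

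The tropomyosin-binding subunits showed the same divide. Fast Tnnt3 ran from 80.2 to 1454 with a median of 153 in the Tnfr1-/- libraries, against 102, 112, 60.3, 71.5 and 348 in the wild type. Slow Tnnt1 ran from 19.2 to 39.6 with a median of 20.9, against 22.0, 18.6, 16.8, 24.2 and 23.4, with the highest value in Tnfr1-/- replicate 4. Slow Tnnc1 was low throughout, from 2.92 to 8.72 with a median of 3.97 against 5.91, 1.80, 3.62, 5.80 and 3.29. None of the 3 slow troponin genes reached 2-fold in Tnfr1-/- replicate 2, where the 3 fast ones were 10.7-fold to 13.6-fold.

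Nebulin (Neb), which runs along the thin filament, ran from 5.21 to 79.8 in the Tnfr1-/- libraries with a median of 9.14, and was 7.27, 6.96, 3.25, 6.94 and 6.78 in the wild type. Here wild-type replicate 5 did not stand above the other wild-type libraries. Tmod4, which caps the filament, was 10.4-fold in Tnfr1-/- replicate 2.

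**Figure D3:**
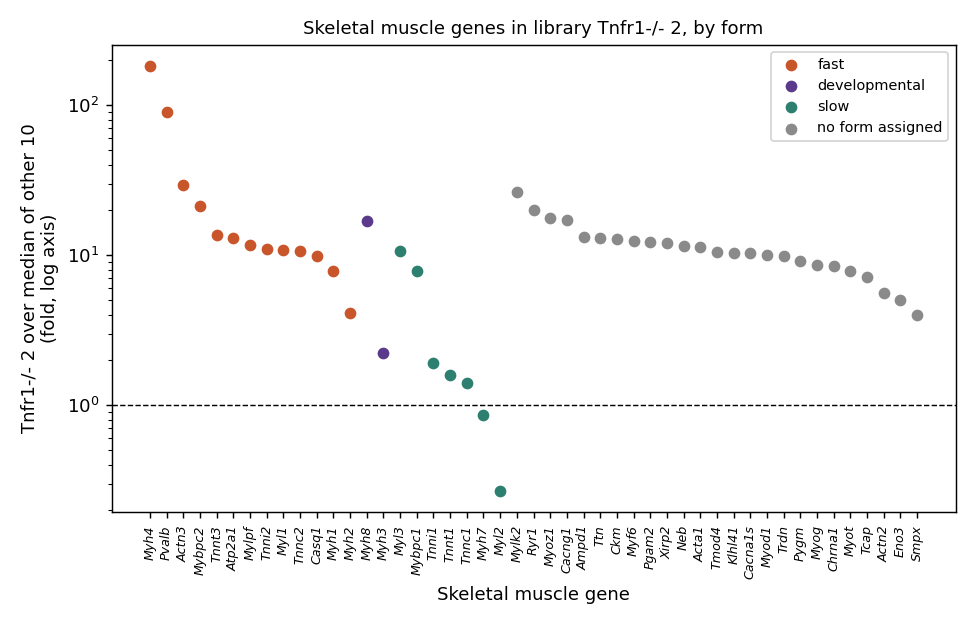
Level of each of the 47 genes in Tnfr1-/- replicate 2 as a fold of its median in the other 10 libraries (log axis), by fast, developmental, slow or no assigned form; the dashed line is 1-fold. The 13 fast genes lie between 4.10-fold and 183-fold, and 5 of the 7 slow genes lie below 2-fold.

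At the Z-disc, which anchors the filaments, all 9 genes were highest in Tnfr1-/- replicate 2, from 3.97-fold for Smpx to 29.5-fold for Actn3, the alpha-actinin of fast fibres. Smpx, a small striated muscle protein, ran from 26.2 to 131 with a median of 37.9 in the Tnfr1-/- libraries, and was 36.5, 27.6, 27.3, 29.0 and 44.4 in the wild type. Actn2, the alpha-actinin shared with heart, ran from 11.7 to 122 with a median of 31.1, against 21.8, 21.7, 11.6, 17.2 and 55.6. Tnfr1-/- replicate 5 was at 31.7 for Actn2, inside the range of the other libraries, though its estimated reads (1879) were above those of wild-type replicate 5 (1362). Myotilin (Myot) ran from 2.93 to 30.1 with a median of 5.20, against 5.07, 3.38, 1.81, 3.19 and 5.32. The giant spring protein Ttn (13.0-fold), its cap Tcap (7.11-fold), Myoz1 (17.8-fold), Xirp2 (12.1-fold) and Klhl41 (10.4-fold) were also highest in Tnfr1-/- replicate 2.

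The 8 genes of excitation and calcium handling were all highest in Tnfr1-/- replicate 2, and for each of them the 3 highest libraries were the same 3 that led the sum. Atp2a1, the calcium pump of fast fibres, ran from 22.5 to 509 with a median of 50.5 in the Tnfr1-/- libraries, and was 38.2, 40.5, 17.2, 21.9 and 158 in the wild type. Casq1, which stores calcium in the reticulum, ran from 17.1 to 254 with a median of 29.1, against 28.1, 25.3, 19.3, 18.8 and 88.4. For both genes wild-type replicate 5 stood near Tnfr1-/- replicate 5 in abundance, at 158 beside 184 and at 88.4 beside 85.3. Estimated reads were further apart, at 5024 beside 12294 for Atp2a1 and 2873 beside 4344 for Casq1. The calcium buffer Pvalb, known from fast fibres, was 125 in Tnfr1-/- replicate 2, 37.1 in Tnfr1-/- replicate 5, 24.9 in wild-type replicate 5 and 11.4 in wild-type replicate 1. It was at most 2.42 in the other 7 libraries and listed at 0 in Tnfr1-/- replicate 3. Pvalb is also made by neurons, so its level is not specific to fibres.

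Members of the release machinery had lower levels. The channel subunits Cacna1s and Cacng1 were 10.4-fold and 17.1-fold in Tnfr1-/- replicate 2, the release channel Ryr1 20.1-fold and its partner Trdn 9.84-fold. Chrna1, the acetylcholine receptor subunit of the neuromuscular junction, reached 5.91 there and at most 2.64 elsewhere.

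Among energy enzymes, Ckm, the muscle creatine kinase, ran from 112 to 1566 with a median of 145 in the Tnfr1-/- libraries, and was 122, 114, 93.1, 125 and 335 in the wild type. Eno3, the muscle enolase, ran from 35.1 to 331 with a median of 76.3, against 58.3, 78.1, 28.7, 39.4 and 96.5. Both genes were highest in Tnfr1-/- replicate 2, and the genotypes overlapped. Pgam2 and Ampd1, of glycolysis and of purine nucleotides, were 12.2-fold and 13.3-fold there. Pygm, the glycogen phosphorylase, was 9.16-fold, and a second gene identifier holds the same Pygm values in every library, so what is printed is 1 of 2 equal copies.

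Myogenic factors were low but moved with the fibre genes. Myog, which drives the last step of differentiation, ran from 1.65 to 16.7 with a median of 2.55 in the Tnfr1-/- libraries, and was 1.25, 1.07, 1.60, 2.20 and 4.79 in the wild type. Myf6, the factor kept on in fibres, ran from 1.11 to 15.1 with a median of 1.70, against 0.946, 0.904, 0.547, 0.961 and 2.16. Myod1, which sets the lineage, ran from 0.480 to 7.63 with a median of 1.01, against 0.421, 0.811, 0.482, 0.416 and 1.57. In Tnfr1-/- replicate 2 the 3 factors were 8.63-fold to 12.4-fold, close to the median of the whole group.

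Co-variation over the 11 libraries was high among fast members and mixed among slow and developmental ones. Pearson's r of log2 values had a median of 0.927 over all 1081 pairs of members. It was 0.939 over 78 fast pairs, 0.412 over 21 slow pairs and 0.457 over 91 pairs of a fast and a slow member. The slow pair Myl3 and Mybpc1 had an r of 0.992, and 0.98 and 0.99 with the mean of the other members. With that mean, developmental Myh8 had 0.97 and Myh3 0.11. Slow Myh7 and Tnnc1 had an r of 0.797 with each other but 0.24 and 0.14 with the mean of the other members, and Myl2 had -0.43. All points share libraries, and Tnfr1-/- replicate 2 weighs on each r.

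Genotype was then compared over all 15079 genes with limma on log2(abundance + 0.5), with Benjamini-Hochberg adjusted p-values. Of the 47 members 41 were tested, with at least 1 scaled TPM in at least 5 libraries; Mylk2, Ttn, Xirp2, Ryr1, Chrna1 and Myod1 were below that. None of the 41 was called at an adjusted p under 0.05, where 0.00663% of all genes were (1 gene). None had an unadjusted p under 0.05, where 9.37% of all genes did. No member had genotypes that did not overlap, against 1.49% of all genes. The fitted difference was above 0 for 40 of 41 members, with 47.9% over all genes, and its median was 0.74 on the log2 scale. Because the members move together over libraries, those 40 are not 40 separate observations.

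The member with the smallest p was Myf6, with a log2 fold change of 1.17 ± 0.58 (SE) and an adjusted p of 0.565. Neb followed at 0.99 ± 0.61 (adjusted p 0.648) and Myot at 0.83 ± 0.51 (adjusted p 0.649). For abundant members the spread was as wide: Acta1 was 626 ± 819 (SD, n = 6) in Tnfr1-/- and 241 ± 140.2 (SD, n = 5) in wild type, a log2 fold change of 0.81 with a 95% interval from -0.58 to 2.20. Myh8 had 1.18, with an interval from -0.56 to 2.91, and Ckm 0.83, from -0.68 to 2.34. Tnnt1, the member with the narrowest interval, had 0.24, from -0.19 to 0.67. These intervals span changes of several fold in most members, so a genotype difference was not detectable at this spread.

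The fitted difference was smaller without Tnfr1-/- replicate 2. The median over the members was then 0.25 in place of 0.74, and Myf6 had a value of 0.74, Acta1 of 0.30 and Neb of 0.47. Myh1, Tnni1, Pvalb and Trdn then had values of -0.071, -0.075, -0.73 and -0.055, below 0. Without the 3 libraries of the highest sums, a choice made after seeing the values, the median was 0.22. A covariate for Eif2s3y above 10 or not was also added after seeing the data. It sets apart replicates 2 and 5 of each genotype, among them the 3 libraries of the highest sums. With it 13 of 41 members had an unadjusted limma p under 0.05 and a value above 0, where 4.82% of all genes did. None was called (smallest adjusted p 0.340, Myf6). The members were chosen for moving together in these libraries, so those 13 are not 13 separate observations.

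**Figure D4:**
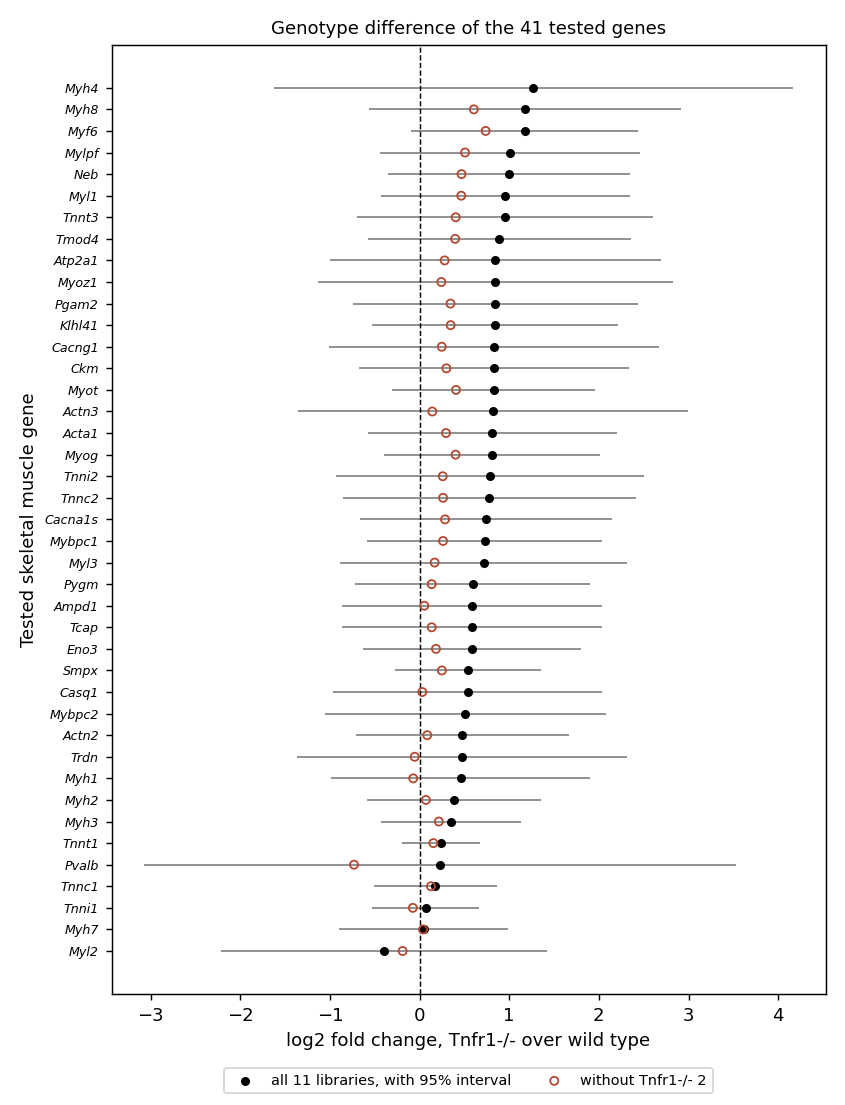
Fitted log2 fold change, Tnfr1-/- over wild type, of the 41 tested genes: black points with 95% intervals for all 11 libraries, open red circles without Tnfr1-/- replicate 2. Every interval crosses 0, and most points move toward 0 without that library; Myh4 and Mybpc2 have no open circle because they were then below the filter.

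The authors' deposited table gives a p-value for 133 of 252 member transcripts. In the authors' deposited table none of these has a q-value under 0.05 and the smallest q-value is 0.602. Its p-value is under 0.05 for 10 of the 133, which is 7.52%, against 4.39% of all 49810 transcripts with a p-value.

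Other genes of skeletal muscle were taken from a list of 45 that holds no member. Of 35 tested, 32 were highest in Tnfr1-/- replicate 2 and 29 were at least 3-fold there. By genotype 34 were fitted above 0 and 1 below (Fbp2), the median was 0.66, and none was called. Lmod2, a thin filament nucleator, was the 1 gene with an unadjusted p under 0.05 (log2 fold change 1.06 ± 0.46 (SE), limma adjusted p 0.517). The most abundant of the list, Fbp2, was flat, from 122 to 185 in all 11 libraries, and Jph2 was 1.16-fold in Tnfr1-/- replicate 2, whereas Cox8b was 4.72-fold.

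Over all 15037 tested genes outside the group, 75 had an r above 0.9 with the members' mean over the 11 libraries, and 25 of these were in the list of 45. Highest was Hfe2 (hemojuvelin) with an r of 0.993, and among the next were Myom2, Apobec2, Ddit4l, Sypl2, Ldb3, Dhrs7c, Cox6a2, Jsrp1, Sln and Itgb1bp2, the last at 0.978. Hfe2 was 30.8 in Tnfr1-/- replicate 2, 10.9 in Tnfr1-/- replicate 5, 6.76 in wild-type replicate 5 and at most 4.83 elsewhere. No gene had an r below -0.9.

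Most markers of muscle precursors had low levels, and several were highest in Tnfr1-/- replicate 2. Of 10 such markers 2 were tested, Chodl and Fgfr4, at 1.06-fold and 1.15-fold in Tnfr1-/- replicate 2. The fusion genes Mymk and Mymx reached 3.19 and 3.65 there and at most 1.83 and 1.04 elsewhere, and Cdh15 reached 2.70 there and at most 1.46 elsewhere. Myf5, Pax3 and Pax7, the satellite cell factor, reached 1.11, 0.575 and 0.62 in that library, each above all the others. Of genes kept on in fetal or denervated fibres, Actc1 was 8.97-fold, Sln 16.1-fold and the fetal receptor subunit Chrng, at most 1.04, 5.62-fold. Tnnt2, Myl4, Gadd45a, Runx1 and Ncam1 of the same list were between 0.82-fold and 1.47-fold. Over that list of 10, which includes the members Myh3 and Myh8, the sum was 1016 in Tnfr1-/- replicate 2, 435 in Tnfr1-/- replicate 5, 322 in wild-type replicate 5 and at most 232 elsewhere. Myh8 alone made up 659 of the 1016.

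The heart markers differed in level. Of the 11, Nppa, Nppb and Myh6 stayed at or below 0.58, 0.27 and 1.05 in all libraries. Tnnt2 ran from 24.9 to 71.1, Myl4 from 9.71 to 29.8, Myl7 from 1.38 to 5.02 and Tnni3 from 1.38 to 3.38, at 1.28-fold to 1.88-fold in Tnfr1-/- replicate 2. Actc1 (8.97-fold) and Casq2 (4.57-fold), which immature or slow skeletal fibres also make, followed Tnfr1-/- replicate 2. The sum of the 11 heart markers ran from 77.9 to 299 in Tnfr1-/- and from 57.7 to 145.7 in wild type, where the top libraries were the same 3.

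Smooth muscle did not follow the skeletal genes. The sum of its 14 markers was 10157 in Tnfr1-/- replicate 2, 10146 in Tnfr1-/- replicate 5 and 8613 in wild-type replicate 5, inside the range of 6843 to 17094 over the 11 libraries. Fibroblast (1960 to 4334), fat (199 to 644), Schwann cell (185 to 338) and urothelial (135 to 436) sums were also highest or lowest in other libraries, except that Tnfr1-/- replicate 2 had the highest Schwann cell sum and wild-type replicate 5 the lowest. Of 9 bone and cartilage markers 8 were below 1 in all libraries, and the sum ran from 1.77 to 6.86.

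Hair follicle keratins ran the other way in Tnfr1-/- replicates 2 and 5, and less clearly in wild-type replicate 5. All 16 genes of that list found in the table were tested, and their sum was 7.48 in Tnfr1-/- replicate 5, 91.6 in Tnfr1-/- replicate 2 and 317 in wild-type replicate 5, the 3 lowest values. In the other 8 libraries it ran from 331, in wild-type replicate 4, to 4061. Krt71, of the inner root sheath, was 0.45 and 15.9 in Tnfr1-/- replicates 5 and 2, 56.3 in wild-type replicate 5 and 77.0 to 763 elsewhere. Squamous epithelium markers, 24 of 24 tested, were lowest in Tnfr1-/- replicate 5 (829) but at 2883 in Tnfr1-/- replicate 2, in a range up to 4225. The 3 libraries rich in skeletal muscle genes are also among the 4 with Eif2s3y; the fourth, wild-type replicate 2, had a muscle sum of 1422. The part of skin-type tissue and of sex in the muscle signal was not tested.

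RNA of the members also differed in form. For 11 members the annotation holds a short transcript at the 3′ end, of at most 1100 bases. It ends within 500 bases of the longest expressed coding transcript. The share was measured out of the short and that long transcript, and other transcripts of the gene were left out. The median share over these 11 was 37.6% and 31.9% in Tnfr1-/- replicates 2 and 5, but 72.5% in wild-type replicate 5, the highest of all libraries. The other 8 ran from 39.6% to 69.0%. Over 1176 other genes with such a pair the median stayed between 33.2% (wild-type replicate 4) and 43.5% (wild-type replicate 3). There too wild-type replicate 5 was near the top (43.3%) and Tnfr1-/- replicate 5 near the bottom (34.9%), with Tnfr1-/- replicate 2 at 38.5%. Wild-type replicate 5 was highest for 7 of the 11 members, against 18.2% of the other genes, which was the largest share of any library. Atp2a1 had 77.5% in wild-type replicate 5 and 45.3% in Tnfr1-/- replicate 5.

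The ratio of summed abundance between the 2 libraries differed from gene to gene. Of genes chosen after their values were seen, wild-type replicate 5 and Tnfr1-/- replicate 5 were close in abundance for Tnnc2 (629 and 626), Mybpc1 (56.8 and 60.8) and Cacna1s (8.28 and 8.02). At depths of 34.4 and 39.7 M, estimated reads were near for Tnnc2 (7736 and 8799). They were further apart for Mybpc1 (1773 and 4995) and Cacna1s (287 and 838). The short 3′ transcripts of Mybpc1 and Cacna1s took 84.4% and 98.7% in wild-type replicate 5, against 29.7% and 59.0% in Tnfr1-/- replicate 5. Wild-type replicate 5 was the lower in abundance for Mylpf (432 and 728), Ckm (335 and 563), Myh8 (130.2 and 224), Neb (6.78 and 19.7) and Ryr1 (1.32 and 4.20), and the higher for Actn2 (55.6 and 31.7). Estimated reads of Actn2 went the other way, at 1362 and 1879. Its short 3′ transcript took 79.4% in wild-type replicate 5 and 47.8% in Tnfr1-/- replicate 5. The part of RNA integrity in these levels was not tested.

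**Figure D5:**
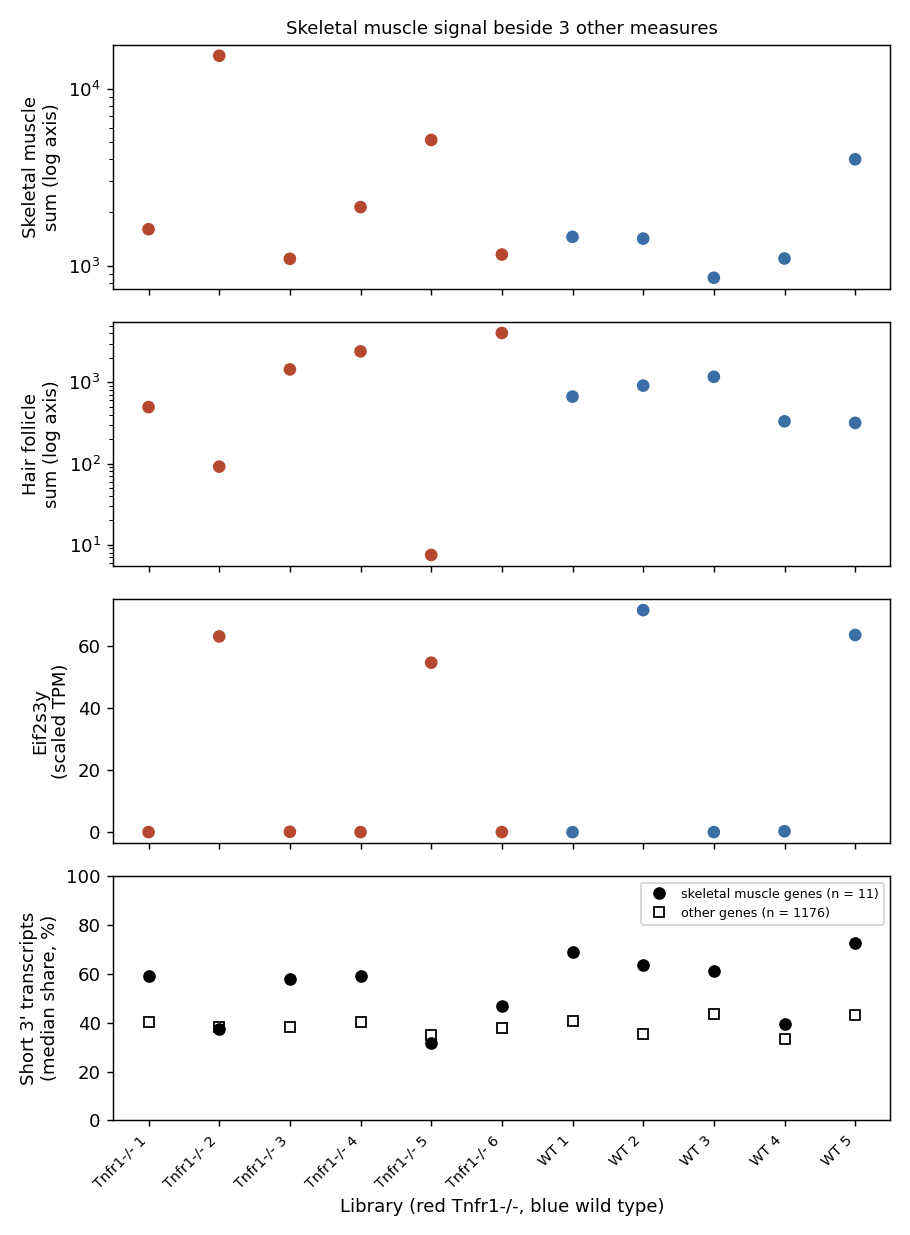
Per library, from top to bottom: summed skeletal muscle abundance (log axis), summed hair follicle abundance (log axis), Eif2s3y (scaled TPM), and the median share in percent of short 3′ transcripts for 11 skeletal muscle genes (filled) and 1176 other genes (open squares). The share is out of the short and the longest expressed coding transcript of each gene. The 3 libraries with the highest muscle sums have the 3 lowest hair follicle sums, from 7.48 to 317, and wild-type replicate 4 is next at 331.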

How the data were processed

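RNA of 6 Tnfr1-/- and 5 wild-type colons was sequenced as single-end reads from stranded mRNA libraries, per the labels' protocols. Per the submitters' processing notes, which give no versions, the tools were CASAVA, kallisto and sleuth and the genome mm10. The authors' deposited value per transcript and sample is a signal: TPM scaled by the size factor of its library. The deposited table also holds the authors' p-value and q-value per transcript, and a mean on the natural log scale of estimated counts, used here only for its relation to length: over 5871 transcripts it crossed 0 at 198.9 bases, as a fragment length of 200 gives. For genes with a single transcript, depth was set so that as many small values as possible lay within 0.02 of a whole read (52.5% to 55.8% did). Reads are therefore estimates, and count models were not used. All sample columns were mapped.

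One line was kept for each of 113193 transcripts and values were summed per Ensembl gene; 97 transcripts without a gene (0.031% of abundance) were left out. Groups were compared with limma 3.58.1 (trend) in R 4.3.3 on log2(value + 0.5), for genes with a value of at least 1 in at least 5 libraries. P-values are two-sided and measure the spread between these mice. Python 3.11.15 with matplotlib 3.10.9, numpy 2.4.6 and pandas 2.3.3 made tables and figures. Positions and lengths are from GENCODE M21, promoters from RefSeq, both on GRCm38. On simulated data the fit called 87.8% of 2-fold changes among 15079 genes, with 6.20% of calls false. That share is not for the members, and how often a 2-fold change in them would be called was not tested. Their standard errors on the log2 scale ran from 0.20 for Tnnt1 to 1.50 for Pvalb, with 0.63 for Acta1.

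The members and all gene lists were chosen with earlier results of these data known. Library values are given for the 2 most abundant members of each role, all heavy chain and troponin forms, the myogenic factors and the 3 members with the smallest p; other genes with values were chosen after these were seen. Outside the group, the 12 tested genes most correlated with the members' mean were taken, of which 1 is not reported here. Alternatives were other pseudocounts, filters and scalings, sample weights, a replicate block and leaving out each library.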

Additional observations from a re-analysis of the deposited data

Results flagged for a closer look

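In 54 groups (the sum and the named members, in each genotype) 34 held a library far from the others. Tnfr1-/- replicate 2 was that library in 20, wild-type replicate 5 in 13, and these groups share libraries, so they are not separate observations. A chance rate of 1 in 20 groups, or 2.7, assumes separate groups not chosen from these values, so it does not apply here. The members were also chosen for moving together in these same libraries, so their number is a description and no test against chance.

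The sum over the 47 genes was 15473 in Tnfr1-/- replicate 2, with the next Tnfr1-/- library at 5152, and 4003 in wild-type replicate 5, with the next wild type at 1454. Both libraries stood apart for Mylpf (2072 and 432), Myl1 (1227 and 232), Acta1 (2266 and 485), Tnnc2 (1801 and 629), Actn2 (122 and 55.6), Atp2a1 (509 and 158), Casq1 (254 and 88.4), Ckm (1566 and 335), Myh8 (659 and 130.2), Tnni2 (1178 and 449) and Tnnt3 (1454 and 348).

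Tnfr1-/- replicate 2 alone stood apart within its genotype for Eno3 (331), Myog (16.7), Myh1 (115), Myh2 (12.1), Myh4 (101), Myod1 (7.63), Neb (79.8) and Myot (30.1). Wild-type replicate 5 alone did for Myf6 (2.16). For Neb the far wild-type library was replicate 3, low at 3.25 with the next at 6.78.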

How the results depend on the processing

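No member and no gene of the list of other skeletal muscle genes was called in any of the 21 alternatives. The number of all genes called was 1, against 3 with sample quality weights. With the covariate for Eif2s3y above 10 or not, added after the data were seen, it was 4. It was 1 to 2 when 1 library was left out (2 without wild-type replicate 1). Over the members tested the median fold change (log2) was 0.74, 0.32 with sample quality weights and 0.25 to 1.03 when 1 library was left out (0.25 without Tnfr1-/- replicate 2, 1.03 without wild-type replicate 5). Members at an unadjusted p under 0.05 numbered 0 to 1 when 1 library was left out.

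Log2 fold changes turned below 0 for 4 of the members named by rule, from values between 0.05 and 0.46, and, of other members in the text, for Pvalb (0.23 to -0.73) and Trdn (0.47 to -0.055) without Tnfr1-/- replicate 2. Leaving out 1 library gave -0.071 to 0.74 for Myh1, -0.26 to 0.30 for Myh7, -0.048 to 0.32 for Tnnc1 and -0.089 to 0.26 for Tnni1. Without the 3 libraries of the highest sums (also added later) Myh1 was at -0.16 and Tnni1 at -0.14. The cause of these changes was not tested beyond the libraries left out.

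The labels do not say whether the replicate numbers pair the samples. The deviations of same-numbered libraries correlated between -0.22 and 0.38, and Eif2s3y was high in replicates 2 and 5 of each genotype. Neither can decide whether the numbers pair mice. With the replicate block, which drops Tnfr1-/- replicate 6 because no wild-type library has that number, Myh7 was at -0.024 and the median of the members was 0.98. In that fit 0 members and 1 gene were called. The unadjusted limma p was under 0.05 for 6 of 41 members and 7 of 35 other skeletal muscle genes, and for 10.2% of all genes. Since the members move together over libraries, those 6 are not separate observations.

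Depth limits members that rest on few reads in the low libraries, among them Myl2, Pvalb, Myh4 and the factors. The lowest estimates were also 14 reads for Actn3, 16 for Mylk2, 22 for Tnnc1, 28 for Myh3, 32 for Myh7 and 35 for Xirp2. The spread between mice, with 5 and 6 of them, limits all members.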
